A study of Rattus norvegicus with 4 samples.

Results

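The vacuolar ATPase is the proton pump that acidifies lysosomes, and its genes were followed here together with genes of the lysosomal membrane, of the MiT/TFE transcription factors and of the Ragulator-mTORC1 platform, in spleen cells of rats given liposomes or saline. The set of 34 genes was drawn up with earlier results of these arrays known, so its overall direction is not independent evidence. Its members were found by name, and 32 of them had a probe carrying that name, of 22136 named genes on the arrays. Of these, 31 were bright enough to test. Atp6v0d2 was not well above background on any array. Tfe3 had no probe by name or accession, and Lamtor3 was found only through its accession, under the older name Map2k1ip1, and is kept out of the counts.

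Expression was measured on 4 one-colour arrays, each hybridised with Cy3-labelled RNA of splenic cells. The groups were 2 liposome samples and 2 saline samples, all from male WKAH rats aged 8 to 12 weeks and taken 24 h after the injection. In both groups the cells had been depleted of MHC class II-positive cells with OX-6 beads and then enriched for CD11b/c, a myeloid integrin, with OX-42 and beads, so the samples were enriched fractions and not a single cell type. What the liposomes were made of and the dose are not given in the sources used here, and the labels do not say whether the arrays came from separate animals. In both groups the titles number the samples after the letters exp, and the main fit did not pair arrays by that number. What the p-values weigh is therefore the spread from array to array, and that spread may be technical.

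The vacuolar ATPase has a cytosolic part, V1, which splits ATP, and a membrane part, V0, which carries protons across the lysosomal membrane, and the pump works only when V1 and V0 are joined. On the lysosomal surface the Ragulator complex holds the Rag GTPases, and when amino acids are plentiful these bring the kinase complex mTORC1 to the lysosome, where the GTPase Rheb switches it on. TFEB, TFE3 and MITF, the MiT/TFE factors, are kept in the cytosol by mTORC1 and switch on many lysosomal genes when they reach the nucleus. They bind DNA at short sites built around CACGTG, known as CLEAR elements, and osteoclasts and macrophages are known for high amounts of the pump.

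Because the MiT/TFE factors are among the members, the promoters of the members were read for that hexamer. The promoters were RefSeq sequences on the build GRCr8 reaching 250 bases before and 50 bases after each gene's start, and 26 of the 34 genes had one. CACGTG, which is its own reverse complement, stood in 7 of 26 member promoters (26.9%), against 6.42% of all 33469 promoters. The longer TCACGTG or its complement CACGTGA stood in the same 7 (26.9%), against 3.2% of all promoters. TCACGTGA, which contains both of the shorter motifs and is its own complement, stood in 4 (15.4%), against 0.777% of all promoters. TCATGTGA or its complement TCACATGA, a related site bound by MITF that does not contain CACGTG, also stood in 4 member promoters (15.4%), against 1.16% of all promoters. Those were the promoters of Atp6v0c, Atp6v1a, Clcn7 and Lamtor1. A longer motif of 10 bases, TCACGTGA with a G before it and a C after it, was also searched. It stood in 0 of the 26 member promoters, against 0.233% of all promoters, and is too rare to be compared over so few promoters. A match is a description of these letters and not evidence of binding. The list was built around lysosomal genes, on which these factors are known to act, so the higher shares are not independent evidence. All promoters served as the comparison, without matching for base composition.

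The stretch before the start of Lamp1, a main glycoprotein of the lysosomal membrane, is shown because it held 5 copies of CACGTG, and it was the only 1 of the 33469 promoters with as many. It lies on the minus strand at chr16:83075064-83075313 of GRCr8 and is printed 5′ to 3′, with each CACGTG in capitals and the gene's start following its last base.
Lamp1: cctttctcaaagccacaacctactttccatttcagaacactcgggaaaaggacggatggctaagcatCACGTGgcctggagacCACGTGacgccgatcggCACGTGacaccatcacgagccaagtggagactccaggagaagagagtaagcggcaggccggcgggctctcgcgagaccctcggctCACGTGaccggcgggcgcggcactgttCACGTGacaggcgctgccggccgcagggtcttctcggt

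The other 6 members with the hexamer are shown as windows of 30 bases in the direction of the gene, with CACGTG in capitals, so that the bases on either side can be compared. Mcoln1 had 2 copies and the other 5 genes had 1 copy each.
Mcoln1, before the start: cgtcaagcttgtCACGTGttcgacccaggc
Mcoln1, after the start: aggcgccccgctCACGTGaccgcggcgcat
Atp6v0d1: ccccattgtggtCACGTGagatgcagtgcg
Atp6v0e1: tcgcgcgccggtCACGTGagcctctgttga
Clcn7: tccgtcctgggtCACGTGggcaccgatggt
Lamtor1: ctgccttcgggtCACGTGccccggtcctgt
Rheb: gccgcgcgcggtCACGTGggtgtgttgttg
The base before the hexamer was T in all of these windows, so each holds TCACGTG. The Mcoln1 windows lay at chr12:6358224-6358253 and chr12:6358250-6358279 on the plus strand. The Atp6v0d1 window lay at chr19:50357283-50357312 and the Atp6v0e1 window at chr10:17007115-17007144, both on the minus strand. The Clcn7 window lay at chr10:14656215-14656244, the Lamtor1 window at chr1:165683925-165683954 and the Rheb window at chr4:11013285-11013314, all on the plus strand.

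**Figure D1:**
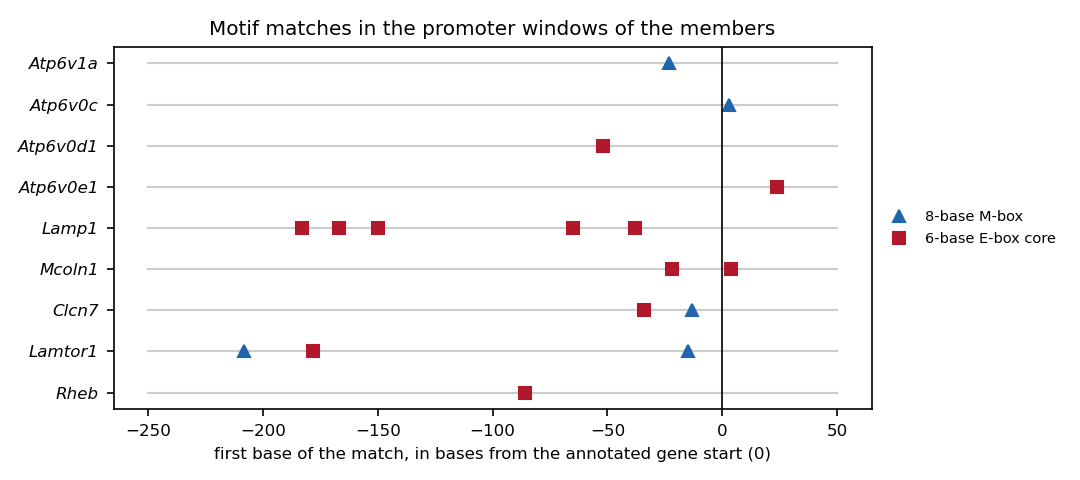
First base of each CACGTG (squares, E-box core) and each TCATGTGA or TCACATGA (triangles, M-box) in the promoters that held either, as distance in bases from the gene's start (x axis, 0 is the start), with 1 line per gene for the window from 250 bases before to 50 after it. Lamp1 has 5 squares, Clcn7 and Lamtor1 have both kinds, and the 4 genes with triangles are Atp6v1a, Atp6v0c, Clcn7 and Lamtor1.

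The changes after liposomes, described next, were set beside the hexamer. The 7 members with CACGTG had a median log2 fold change of 0.70 and the 18 other tested members with a promoter sequence had a median of 0.56, liposome over saline. Among the 7, Mcoln1 and Lamp1 rose, while Clcn7, Lamtor1, Atp6v0d1, Atp6v0e1 and Rheb did not pass the test. Their log2 fold changes ran from 0.02 for Rheb to 1.17 for Mcoln1. None of the V1 subunits was among the 7, but 8 of the 34 members had no promoter sequence to read. The absence therefore holds only for V1 genes with a sequence, and only within the stretch that was read.

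On each array 61.3% to 66.3% of 42877 spots were well above background, 1.14% to 1.36% carried an outlier mark and were left out, and 0 were saturated. All arrays were read in 1 scan. Levels are log2 intensities relative to the array's 75th percentile over probes, so that 0 is the level of a probe at that percentile. Over the 12858 genes tested, the arrays of a group correlated at 0.993 for liposome and 0.989 for saline, and arrays of different groups at 0.971 to 0.975. Between the saline arrays the levels of the members differed by a median of 0.18, and between the liposome arrays by 0.06. The median size of their difference between the groups was 0.59, and for all genes it was 0.25.

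The label of the cells was read against marker lists, which give the setting of the results that follow. Over all genes tested 4.83% rose and 4.06% fell, by the test described in the next paragraph. Of 14 tested macrophage markers 6 fell and 0 rose, and their summed level, in multiples of the array's 75th percentile, was 88.7 to 98.1 on liposome arrays and 117 to 120 on saline arrays. Of 9 tested neutrophil markers 7 fell and 0 rose, with a summed level of 142 to 153 on liposome arrays and 238 to 265 on saline arrays. Of 7 tested erythroid markers 5 fell and 0 rose (30.9 to 32.2 on liposome arrays, 86.6 to 89.1 on saline arrays), and of 7 tested monocyte markers 4 fell and 0 rose (49.1 to 57.0 on liposome arrays, 95.8 to 103 on saline arrays). Of 9 dendritic cell markers 4 fell and 1 rose, and their sum stayed between 6.11 and 6.56 on liposome arrays and between 11.2 and 12.3 on saline arrays. MHC class II genes were still detected in these depleted cells, with 9 of 10 tested, 2 that fell and 0 that rose (317 on both liposome arrays, 407 to 448 on saline arrays). Of 11 B cell, 10 T cell and 10 NK cell markers, 0 passed the test. The B cell sum was 45.4 to 58.3 on liposome arrays and 77.9 to 82.0 on saline arrays, while the T cell sum (20.8 to 38.6 on liposome arrays, 20.9 to 50.7 on saline arrays) and the NK cell sum (48.9 to 73.5 on liposome arrays, 66.3 to 130 on saline arrays) overlapped between the groups. Between arrays with the same number in their titles, the NK cell sum was lower after liposomes, 48.9 against 66.3 and 73.5 against 130. The median log2 fold change of the NK cell markers was -1.30. Of 3 platelet markers 1 rose and 1 fell (1.34 to 1.43 on liposome arrays, 0.64 to 0.70 on saline arrays). The higher platelet sum came from Pf4 (log2 2.11), named after its value was seen, while Gp9 (log2 -0.99) and Gp1bb (log2 -0.58) had both liposome arrays below both saline arrays. Of 5 tested osteoclast markers 0 passed the test (34.8 to 43.0 on liposome arrays, 37.6 to 42.4 on saline arrays), and the defining osteoclast genes Calcr and Tnfrsf11a were not well above background. The part of these shifts in the results below was not tested, and in bulk samples fewer cells of a type and less RNA per cell cannot be told apart.

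Most genes of the pump and of its lysosomal surroundings lay higher after liposomes. By limma, with Benjamini-Hochberg adjustment over all 12858 genes and a threshold of 0.05, 13 of the 31 tested members rose, 0 fell and 18 did not pass. Over all genes tested 4.83% rose and 4.06% fell, 8.89% in all. Of these calls 54.3% were higher, and 65.8% were with the arrays scaled to their median. The median log2 fold change of the members was 0.59 (1.51-fold), against -0.04 for all genes, and 20 of the 31 lay above the 90th percentile of all genes, a log2 fold change of 0.51. Both liposome arrays lay above both saline arrays for 28 members and below them for 2, and the groups overlapped for 1. For all genes those shares were 30.4% above and 35.1% below. Throughout, n is 2 arrays per group and ± is the standard error from limma.

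**Figure D2:**
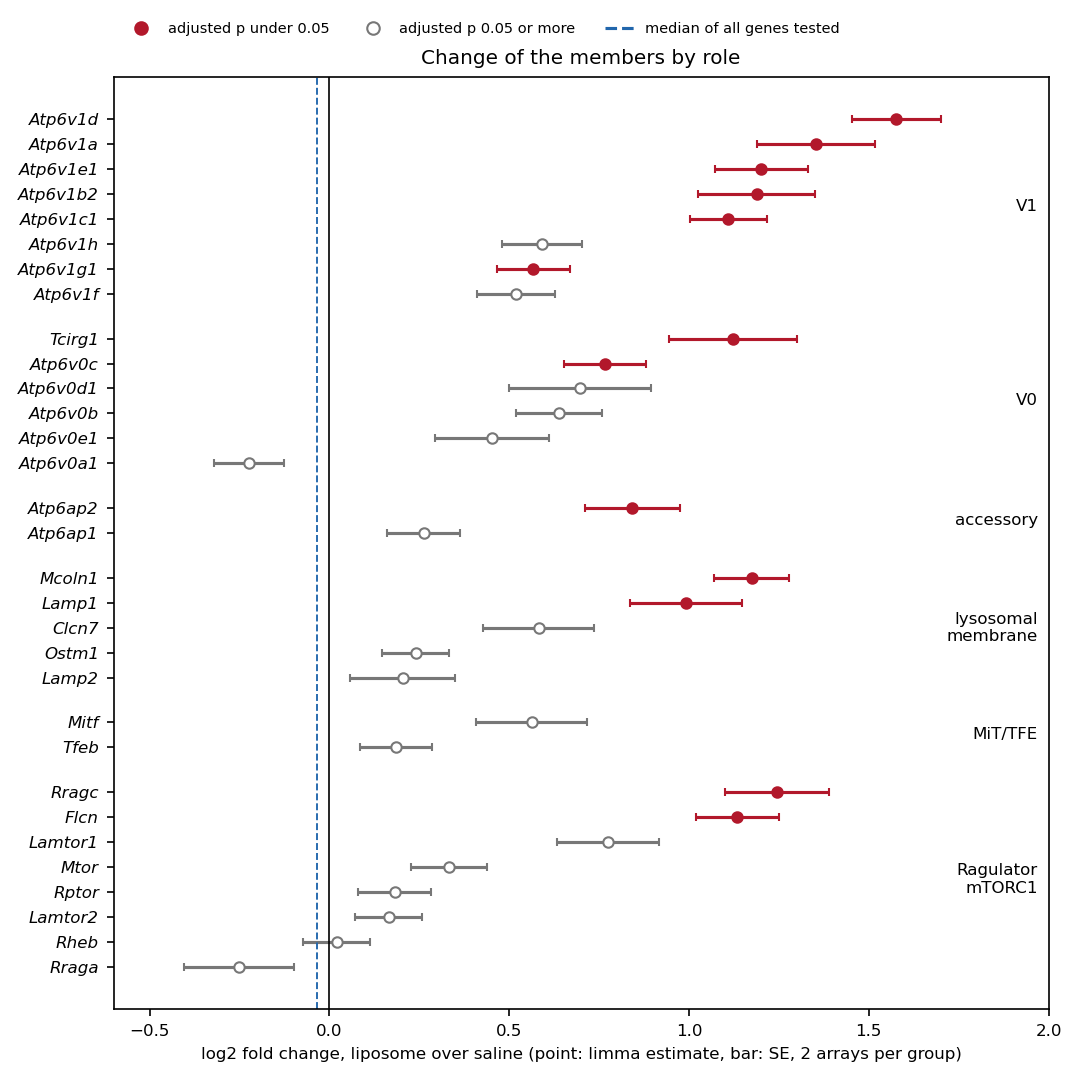
Log2 fold change of each tested member, liposome over saline (x axis), grouped by role, with bars for the standard error from limma (n = 2 arrays per group) and filled points for an adjusted p under 0.05. The V1 subunits lie between 0.52 and 1.58, and Rraga and Atp6v0a1 are the members below 0.

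The calls rested on few arrays. With either liposome array left out, 0 members passed by limma, with 16 members at an unadjusted p under 0.05 without liposome 1 and 18 without liposome 2, and 0 genes of the whole table passed. Without saline 1, 5 members passed, and without saline 2, 2 members, Atp6v1d and Mcoln1. The directions of all 31 members were the same in each of these fits.

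V1 was the group with the highest median, 1.15 on the log2 scale (2.22-fold), and 6 of its 8 subunits rose while 2 did not pass. All 8 had both liposome arrays above both saline arrays. Atp6v1a and Atp6v1b2 encode the A and B subunits, which alternate in the ring where ATP is bound and split. Atp6v1a had levels of 2.49 and 2.21 on liposome arrays, against 1.13 and 0.86 on saline arrays. It rose 2.56-fold (log2 1.35 ± 0.16, adjusted p = 0.0267). A second, dimmer probe of Atp6v1a, at 58174681 to 58174740 on chromosome 11 of rn4 where the first lies at 58180098 to 58180157, read -2.04 and -2.04 on liposome arrays, against -2.99 and -3.62 on saline arrays. Its difference of 1.26 was close to that of the first probe. In the limma fit over single probes it did not pass (adjusted p = 0.0557), while the first probe did (adjusted p = 0.0294). Atp6v1b2, the B isoform found in most cells, had levels of 4.15 and 4.04 on liposome arrays, against 3.10 and 2.72 on saline arrays. It rose 2.28-fold (log2 1.19 ± 0.16, adjusted p = 0.0326), and its saline arrays were farther apart than its liposome arrays.

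The central stalk of V1, which turns inside the ring, is made of subunits D and F, and the change was uneven between them. Atp6v1d, subunit D, had levels of 1.76 and 1.63 on liposome arrays, against 0.22 and 0.02 on saline arrays. Its rise of 2.98-fold (log2 1.58 ± 0.12, adjusted p = 0.0137) was the largest log2 fold change of any member. Its probe maps to the minus strand of chromosome 6 of rn4 between 101486702 and 101490894, a span of 4193 bases for 60 bases of probe, so the probe crosses at least 1 splice junction. Atp6v1f, subunit F, had levels of 2.91 and 2.89 on liposome arrays, against 2.30 and 2.46 on saline arrays. This difference, log2 0.52 ± 0.11 (1.43-fold), did not pass (adjusted p = 0.0612).

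The outer stalks of V1 are built from subunits E and G and are joined by subunits C and H to the ring and to V0. Atp6v1e1, subunit E, had levels of -0.09 and -0.33 on liposome arrays, against -1.36 and -1.46 on saline arrays. It rose 2.30-fold (log2 1.20 ± 0.13, adjusted p = 0.0216). Its probe was printed in 10 spots, and the SD between them reached 0.54 on saline 1, more than on the other arrays. Atp6v1c1, subunit C, which leaves the pump when V1 and V0 come apart, had levels of 2.95 and 2.79 on liposome arrays, against 1.76 and 1.76 on saline arrays. It rose 2.16-fold (log2 1.11 ± 0.11, adjusted p = 0.0196). Atp6v1g1, subunit G, had levels of 5.13 and 5.19 on liposome arrays, against 4.64 and 4.54 on saline arrays. It rose 1.48-fold (log2 0.57 ± 0.10, adjusted p = 0.0488), at the edge of the threshold, and did not pass with quantile normalization (adjusted p = 0.0523) or with the mean of each gene's probes (adjusted p = 0.0501). Atp6v1h, subunit H, which stops the freed V1 from splitting ATP, had levels of 2.13 and 2.15 on liposome arrays, against 1.64 and 1.46 on saline arrays. Its 1.51-fold difference (log2 0.59 ± 0.11) did not pass (adjusted p = 0.0519). The 10 spots of its probe differed by an SD of no more than 0.12 on any array, a spread within arrays that the test does not weigh.

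**Figure D3:**
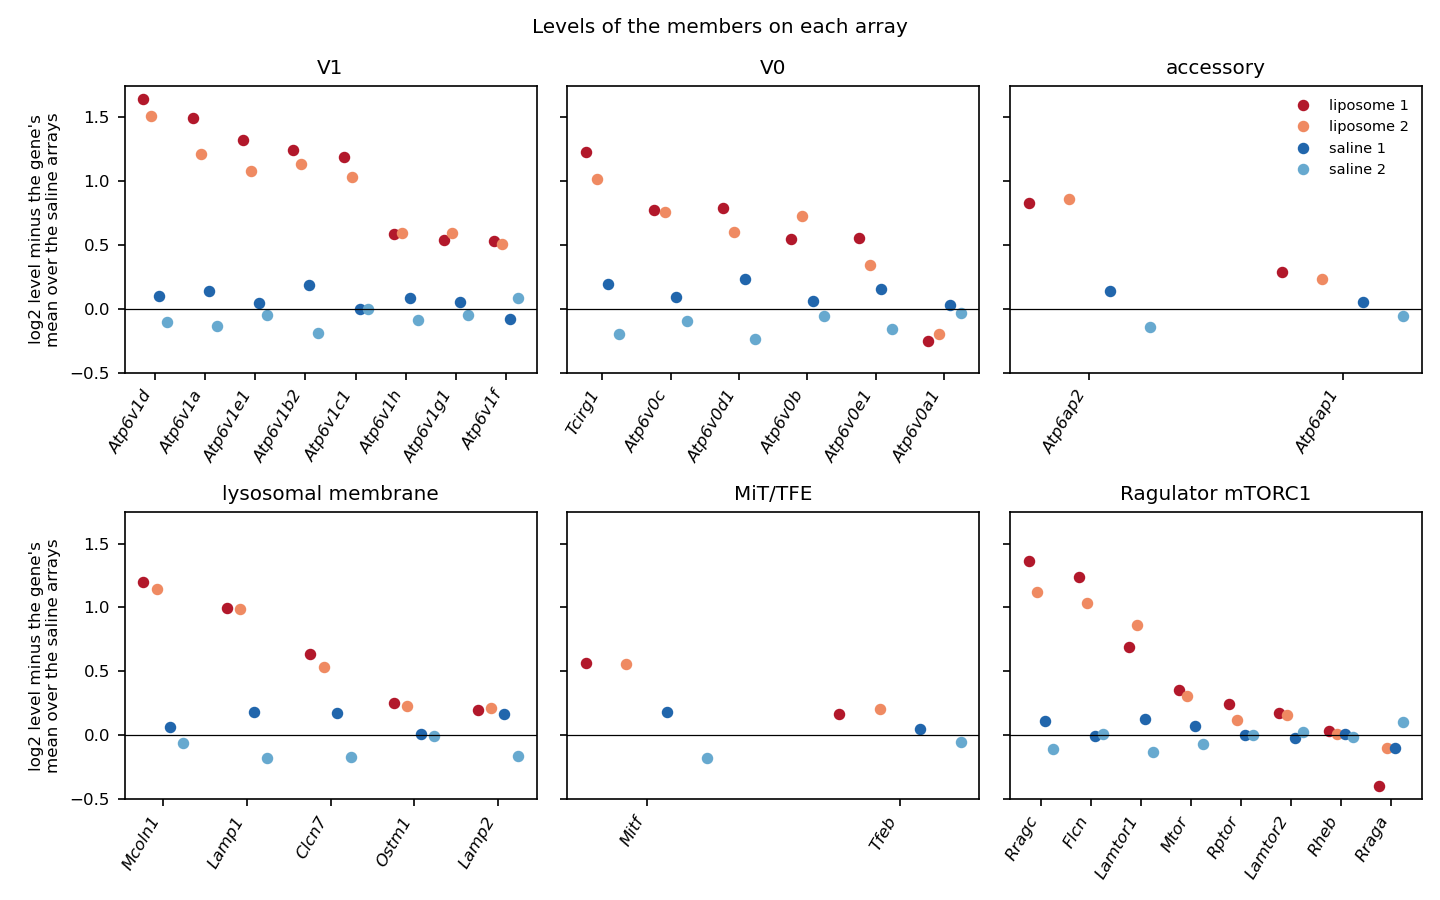
Level of each tested member on each array (y axis, log2 level minus the gene's mean over the saline arrays), in panels by role, with liposome points left of saline points and 2 arrays per group. All V1 subunits have both liposome arrays above both saline arrays, and the groups of Rheb overlap.

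V0, the membrane part of the pump, had a lower median of 0.67 on the log2 scale (1.59-fold). Of its 6 tested subunits 2 rose and 4 did not pass, with log2 fold changes from -0.22 to 1.12. Tcirg1 encodes a3, the isoform of the large subunit a that osteoclasts and macrophages use on lysosomes. Its levels were 5.60 and 5.39 on liposome arrays, against 4.56 and 4.17 on saline arrays. It rose 2.18-fold (log2 1.12 ± 0.18, adjusted p = 0.0412), and its probe lies on chromosome 1 of rn4 at 206420106 to 206420165. Atp6v0a1 encodes a1, another isoform of subunit a that is abundant in neurons. Its levels were 2.25 and 2.31 on liposome arrays, against 2.53 and 2.47 on saline arrays, and both liposome arrays lay below both saline arrays. The difference was log2 -0.22 ± 0.10 and did not pass (adjusted p = 0.197).

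The ring of V0 that carries the protons is made of subunits c and c″. Atp6v0c, subunit c, had levels of 4.71 and 4.69 on liposome arrays, against 4.03 and 3.83 on saline arrays. It rose 1.70-fold (log2 0.77 ± 0.11, adjusted p = 0.0373). Atp6v0b, subunit c″, had levels of 3.51 and 3.69 on liposome arrays, against 3.02 and 2.90 on saline arrays. Its 1.56-fold difference (log2 0.64 ± 0.12) did not pass (adjusted p = 0.0514).

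Subunit d couples the turning stalk to the ring. Atp6v0d1, the isoform found in most cells, had levels of 2.80 and 2.62 on liposome arrays, against 2.25 and 1.78 on saline arrays. The saline arrays were 0.48 apart, the widest gap of any member within a group, and the log2 difference of 0.70 ± 0.20 did not pass (adjusted p = 0.0999). Atp6v0d2, the isoform d2 known from osteoclasts and some macrophages, was not well above background. Its unmarked spots read 5.21 to 6.47 on liposome 1 and 8.90 to 10.9 on liposome 2, against 7.48 to 9.85 on saline 1 and 6.52 to 8.10 on saline 2, in units of intensity. Atp6v0e1, the small subunit e, had levels of 3.84 and 3.63 on liposome arrays, against 3.44 and 3.13 on saline arrays, a log2 difference of 0.45 ± 0.16 that did not pass (adjusted p = 0.14).

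The accessory subunits are single-span proteins that help the pump to assemble and to be sorted, and 1 of these 2 rose. Atp6ap2, also known as the prorenin receptor, had levels of 2.59 and 2.62 on liposome arrays, against 1.90 and 1.62 on saline arrays. It rose 1.79-fold (log2 0.84 ± 0.13, adjusted p = 0.0412). Atp6ap1, also called Ac45, had levels of 4.62 and 4.56 on liposome arrays, against 4.38 and 4.27 on saline arrays. Its log2 difference of 0.26 ± 0.10 did not pass (adjusted p = 0.168). Over V1, V0 and the accessory subunits together, 9 of 16 tested subunits rose, 0 fell and 7 did not pass, with a median log2 fold change of 0.73.

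**Figure D4:**
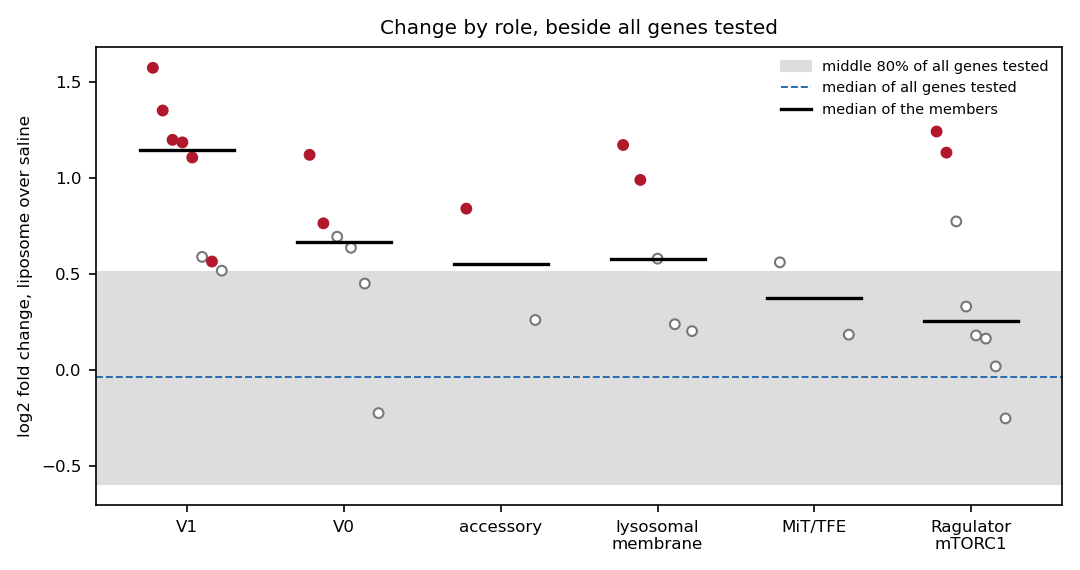
Log2 fold changes, liposome over saline (y axis), of the tested members by role, each point 1 gene (filled where the adjusted p was under 0.05) and each line the median. The dashed line is the median of all genes tested and the grey band their middle 80%. The medians were 1.15 for V1, 0.67 for V0, 0.55 for the accessory subunits, 0.58 for the lysosomal membrane, 0.37 for MiT/TFE and 0.26 for Ragulator-mTORC1.

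Of the 5 other members of the lysosomal membrane 2 rose, and all 5 had both liposome arrays above both saline arrays. Mcoln1 encodes TRPML1, the channel that lets calcium out of the lysosome. Its levels were 1.51 and 1.46 on liposome arrays, against 0.37 and 0.25 on saline arrays. It rose 2.26-fold (log2 1.17 ± 0.10, adjusted p = 0.0162), and its probe lies on chromosome 12 of rn4 at 2640194 to 2640253. Lamp1, whose promoter is printed above, had levels of 3.83 and 3.82 on liposome arrays, against 3.01 and 2.65 on saline arrays. It rose 1.99-fold (log2 0.99 ± 0.16, adjusted p = 0.041). Lamp2, its partner in the lysosomal membrane, had levels of 1.41 and 1.43 on liposome arrays, against 1.38 and 1.05 on saline arrays. Its log2 difference of 0.20 ± 0.15 was smaller than the gap between the saline arrays and did not pass (adjusted p = 0.384). Lamp2 was read by 1 probe, on the plus strand of chromosome X of rn4 between 6931712 and 6938320. That is a span of 6609 bases, so the probe crosses at least 1 splice junction and may not read every transcript of the gene.

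Clcn7 and Ostm1 encode the chloride-proton exchanger of the lysosome and its beta subunit, a pair needed for bone resorption by osteoclasts. Clcn7 had levels of -1.27 and -1.37 on liposome arrays, against -1.73 and -2.07 on saline arrays, a 1.50-fold difference that did not pass (log2 0.58 ± 0.15, adjusted p = 0.088). Ostm1 had levels of 1.91 and 1.89 on liposome arrays, against 1.67 and 1.65 on saline arrays. The difference of log2 0.24 ± 0.09 did not pass (adjusted p = 0.167), and a second probe read a difference of 0.22.

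Neither of the tested MiT/TFE genes passed. Mitf had levels of 1.05 and 1.04 on liposome arrays, against 0.66 and 0.30 on saline arrays (log2 0.56 ± 0.15, adjusted p = 0.0948). This probe lies on chromosome 4 of rn4 at 132745559 to 132745618. Another Mitf probe, at 132745166 to 132745225, read -0.80 and -0.60 on liposome arrays, against -1.42 and -1.78 on saline arrays, a difference of 0.90 with an adjusted p of 0.0567 in the limma fit over single probes. The last Mitf probe was too dim to test. Tfeb had levels of 0.55 and 0.59 on liposome arrays, against 0.44 and 0.33 on saline arrays (log2 0.19 ± 0.10, adjusted p = 0.271). These arrays measure the amount of RNA, and the activity of these factors is set in large part by where the protein sits in the cell.

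The Ragulator-mTORC1 genes were split. Of 8 tested by name 2 rose, 0 fell and 6 did not pass, with a median log2 fold change of 0.26 (1.19-fold). Rragc encodes RagC, the Rag GTPase that pairs with RagA or RagB. Its levels were 5.34 and 5.10 on liposome arrays, against 4.09 and 3.87 on saline arrays. It rose 2.37-fold (log2 1.24 ± 0.14, adjusted p = 0.0247), and its probe lies on chromosome 5 of rn4 at 143228353 to 143228412. Flcn encodes folliculin, which makes RagC and RagD hydrolyse their GTP and is needed for mTORC1 to act on the MiT/TFE factors. Its levels were 3.67 and 3.46 on liposome arrays, against 2.42 and 2.44 on saline arrays. It rose 2.19-fold (log2 1.13 ± 0.12, adjusted p = 0.0207), and its probe lies on chromosome 10 of rn4 at 46110549 to 46110608.

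Rraga encodes RagA, a partner of RagC, and its fold change had the opposite sign. Its levels were 0.35 and 0.64 on liposome arrays, against 0.64 and 0.84 on saline arrays, so that liposome 2 and saline 1 all but touched. Its log2 difference of -0.25 ± 0.15 did not pass (adjusted p = 0.321). Of the Ragulator scaffold, Lamtor1, which anchors the complex in the membrane, had levels of 1.07 and 1.25 on liposome arrays, against 0.52 and 0.26 on saline arrays. Its 1.71-fold difference (log2 0.78 ± 0.14) just missed the threshold (adjusted p = 0.0503). Lamtor3, found by accession, had levels of 0.73 and 0.53 on liposome arrays, against -0.02 and -0.35 on saline arrays (log2 0.81 ± 0.16, adjusted p = 0.0584). Lamtor2 differed by a log2 of 0.17 ± 0.09 (adjusted p = 0.293), with levels of 4.38 and 4.37 on liposome arrays, against 4.19 and 4.24 on saline arrays.

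The kinase complex itself and its activator passed no test. Mtor, the kinase, had levels of -3.21 and -3.25 on liposome arrays, against -3.49 and -3.63 on saline arrays (log2 0.33 ± 0.11, adjusted p = 0.12). Rptor, the scaffold that marks mTORC1, had levels of 1.44 and 1.32 on liposome arrays, against 1.20 and 1.20 on saline arrays (log2 0.18 ± 0.10, adjusted p = 0.287). Rheb was the member whose groups overlapped. Its levels were 2.10 and 2.07 on liposome arrays, against 2.08 and 2.05 on saline arrays, a log2 difference of 0.02 ± 0.09 (adjusted p = 0.898).

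In 3 cases, chosen after their values were seen, partners or isoforms had unlike changes, and the gap is given here without a test. On each array the level of the first gene was set against that of the second, relative to the mean of the saline arrays. Tcirg1 over Atp6v0a1, the a3 and a1 isoforms, stood at 1.48 and 1.21 on liposome arrays, against 0.16 and -0.16 on saline arrays, and the log2 fold changes differed by 1.35. Rragc over Rraga, which form a dimer, stood at 1.76 and 1.23 on liposome arrays, against 0.21 and -0.21 on saline arrays, and the changes differed by 1.50. Lamp1 over Lamp2 stood at 0.80 and 0.78 on liposome arrays, against 0.02 and -0.02 on saline arrays, and the changes differed by 0.79. In each case both liposome arrays lay apart from both saline arrays.

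**Figure D5:**
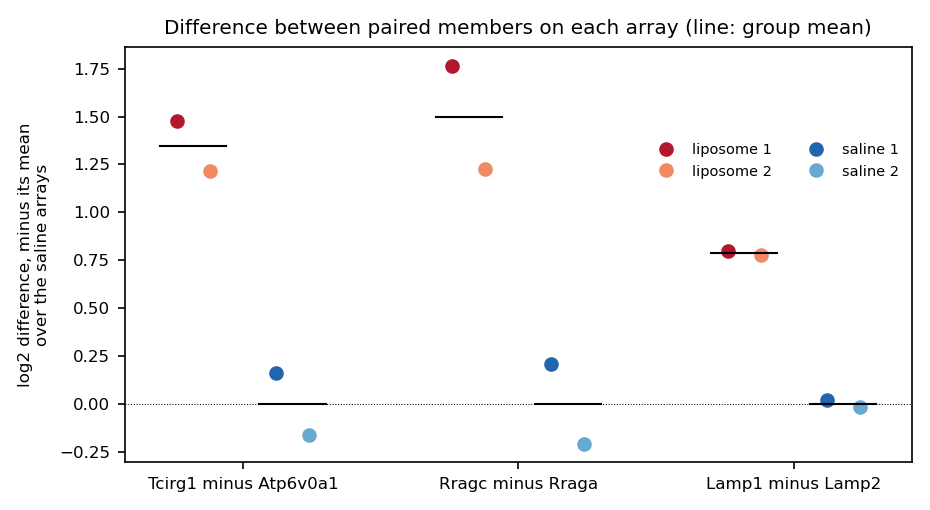
Log2 level of the first gene over the second on each array, relative to the mean of the saline arrays (y axis), for Tcirg1 over Atp6v0a1, Rragc over Rraga and Lamp1 over Lamp2, with liposome left of saline and 1 point per array. All liposome points lie between 0.78 and 1.76 and all saline points between -0.21 and 0.21.

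The order of the groups, V1 above V0 and V0 above Ragulator-mTORC1, is a description, and the difference between the groups was not tested. The lowest V1 change, 0.52 for Atp6v1f, lay above that of Atp6v0e1 and Atp6v0a1 and below that of the other 4 V0 subunits, so the ranges overlapped. The Ragulator-mTORC1 group held 2 changes above 1, those of Rragc and Flcn, beside that of Lamtor1 and 5 at 0.33 or below.

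Beyond the members, 5 lists of related genes held 96 tested genes, of which 15 rose and 2 fell. The shares over all genes tested, to be set beside each count that follows, were 4.83% that rose and 4.06% that fell. Among the other vacuolar ATPase subunits, isoforms restricted to kidney, brain or testis for the most part, 6 of 9 were not well above background and 0 of the 3 tested passed. Of 9 tested genes of assembly and regulation 1 rose. This was Vma21, a chaperone that builds V0 in the endoplasmic reticulum, with levels of 3.35 and 3.51 on liposome arrays, against 2.81 and 2.72 on saline arrays (log2 0.67 ± 0.11, adjusted p = 0.0438).

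Of 33 other tested proteins of the lysosomal membrane 4 rose, 1 fell and 28 did not pass, with a median log2 fold change of 0.26. Cd63, a tetraspanin of late endosomes, rose 5.19-fold (adjusted p = 0.0105). Pip4p2, a lipid phosphatase, rose by a log2 of 1.98 (adjusted p = 0.0113). Scarb2, which carries glucocerebrosidase to the lysosome, rose by a log2 of 1.17 (adjusted p = 0.021), and the nucleoside transporter Slc29a3 by 1.15 (adjusted p = 0.0434). Laptm4a, the gene that fell, is outside the rule for naming genes and was added after its value was seen (log2 -0.67, adjusted p = 0.0445).

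Of 29 further tested genes of the Ragulator, Rag, GATOR, TSC and mTORC1 machinery 3 rose, 1 fell and 25 did not pass, with a median of 0.01. Rragd encodes RagD, which takes the same place as RagC in the Rag dimer. It had levels of -0.77 and -0.95 on liposome arrays, against -2.44 and -2.26 on saline arrays, and rose 2.81-fold (log2 1.49 ± 0.13, adjusted p = 0.0158). Fnip2, the partner of folliculin, rose by a log2 of 0.84 ± 0.09 (adjusted p = 0.0231). Tbc1d7, a subunit of the TSC complex that restrains Rheb, rose by a log2 of 0.62 (adjusted p = 0.0465). Ddit4, an inhibitor of mTORC1 that acts through TSC, fell by 0.81 on the log2 scale (adjusted p = 0.0361).

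Of 22 tested partners and reported targets of the MiT/TFE factors 7 rose, 0 fell and 15 did not pass, with a median of 0.33. The 4 largest were Gpnmb, a glycoprotein of lysosomes and melanosomes, the hydrolase Hexa, the protease Ctsd and Gaa, which breaks down glycogen. Gpnmb rose by a log2 of 4.02 (adjusted p = 0.0075), Hexa by 2.06 (adjusted p = 0.0077), Ctsd by 2.04 (adjusted p = 0.0080) and Gaa by 1.66 (adjusted p = 0.0116). This list was drawn up with earlier results of these arrays known, and its direction is not independent evidence.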

How the data were processed

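The submitters' processing notes name Agilent Feature Extraction 10.7.3.1. The deposited values are spot intensities, which per the file headers were background-corrected within each array, with mean and local background intensities beside them. Here the processed intensity was taken to log2, control spots and outlier-marked spots were dropped and the spots of a probe were averaged. Each array's 75th percentile over probes was then subtracted. A probe entered the fit if, in liposome or saline or both, it was well above background on each array. RefSeq symbols (GRCr8) replaced the names of 10680 of 16852 tested probes by accession, the files' names were kept for 4200, and the brightest probe stood for a gene (1834 genes had several). Members were matched by the files' gene names (37 probes). limma 3.58.1 (lmFit and eBayes) in R 4.3.3 with data.table (version 1.17.8) tested 12858 genes, with Benjamini-Hochberg adjustment over all of them and a threshold of 0.05. No permutation test was run, since with 2 against 2 arrays its exact p is at least 0.333. Arrays are named by the numbers in their titles, and their small number limits the precision.

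The members and lists were chosen with earlier results of these data known. Text names every member and, of each of the 5 lists of other pathway genes, up to 4 genes with the largest absolute log2 fold change among those past the threshold. Alternatives were scaling to the median, quantile normalization, normexp (offset 50), filters on dim probes, the mean of probes, a replicate block and each array left out. One more, leaving out genes named only by an accession, was added after seeing the data. Probe positions come from the files and are on rn4 (36 of 37 member probes), with no annotation of that build used here, so exon and intron are not given.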

Additional observations from a re-analysis of the deposited data

Results flagged for a closer look

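Atp6v0d2, the osteoclast isoform of subunit d, had 1 of its 10 spots on liposome 1 left out for the scanner software's outlier mark. That spot had an intensity of 76.5, and it was the spot of this gene well above background on that array. The other 9 spots on the array read 5.21 to 6.47, and the spots of the other arrays read 8.90 to 10.9 on liposome 2, 7.48 to 9.85 on saline 1 and 6.52 to 8.10 on saline 2.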

How the results depend on the processing

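All 31 members kept the sign of their change under every alternative tried except Rheb, which was at -0.011 with quantile normalization (adjusted p = 0.936), and no member's fold change moved by over 1.5 times. The count of members that rose, 13 in the report, was 12 with quantile normalization or the mean of probes, 15 with a replicate block, 16 with median scaling, with probes above background on all arrays or without accession-only names (an alternative added after seeing the data), and 17 with normexp. With no filter on dim probes, 0 of 21971 genes, 0 members and 0 other pathway genes passed by limma, with 3005, 20 and 27 at an unadjusted p under 0.05. That fit held more and dimmer probes. Leaving out each array in turn gave 0 to 499 genes, 0 to 5 members and 0 to 13 other pathway genes, against 1143, 13 and 17 in the report. Without liposome 1 or liposome 2 all of these counts were 0 (2177 and 2397 genes at an unadjusted p under 0.05, 25 other pathway genes in each), without saline 1 they were 499, 5 and 13, and without saline 2 they were 372, 2 and 8. These fits had fewer samples, with the lone array assumed to vary like the other group. The count of all genes was 1720 with normexp, and the cause was not tested. Median scaling moved the split of all calls from 54.3% to 65.8% higher (1294 genes, 852 higher and 442 lower). The Ragulator-mTORC1 median of 0.26 was 0.34 with median scaling and 0.20 with normexp, and 0.22 to 0.30 with an array left out. The V0 median of 0.67 was 0.52 to 0.78 with an array left out, lowest without saline 2.

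With the title's number as a replicate block 1816 genes passed (828 higher, 988 lower), 15 members and 25 other pathway genes. Under the block Atp6v1g1 no longer passed (adjusted p = 0.0513), and Atp6v1h (0.0494), Atp6v0d1 (0.0454), Lamtor1 (0.0490) and Lamtor3 (0.0284), which did not pass without it, passed by limma. In the titles that number follows the letters exp, and each number stands on a liposome and a saline array. Same-numbered arrays deviated together over 12858 genes (r = 0.355), so the unpaired main fit may ignore a pairing. There are 2 pairs and the labels do not say what the number marks, so the block is given only as an alternative.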
